A study of Homo sapiens with 18 samples.

Results

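TRIM27 knockout MDA-MB-231 cells exposed to olaparib were compared with untreated TRIM27 knockout cells. A gene entered the comparison when it had at least 1 FPKM (fragments per kilobase of transcript, scaled to the fragments of the library) in at least 3 of the 6 libraries, which held for 14578 of the 62830 genes in the deposited table. The olaparib group was 3 libraries of knockout cells given 2 µM olaparib for 24 h, and its control was 3 libraries of knockout cells whose labels name no treatment. The protocol mentions a DMSO vehicle and a non-targeting siRNA, and no label says that the untreated cells received either. Values are set beside those of knockout cells transfected with 100 pM siRNA against PARP1 for 48 h (siPARP1), wild-type cells given the same olaparib exposure and untreated wild-type cells, with 3 libraries in each group. MDA-MB-231 is a triple-negative, mesenchymal-like human breast cancer line. All 18 libraries were made from polyadenylated RNA and carry the same batch label. The labels do not say whether the knockout is 1 clone or whether replicates were separate cultures, so the p-values below measure only the spread between these libraries.

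PARP1 senses DNA breaks and attaches chains of ADP-ribose to itself and to nearby proteins, which recruits repair factors. Olaparib occupies the NAD+ pocket of PARP1 and PARP2, blocks chain formation and holds the enzymes on DNA, so that replicating cells meet obstacles to their replication forks. TRIM27 is a RING-type ubiquitin ligase, and the series places it with PARP1 and the transcription factor PAX6 in invasion and metastasis.

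The targeted gene was checked first. TRIM27 had 0.555, 0.681 and 0.650 FPKM in olaparib-treated knockout libraries and 0.665, 0.547 and 0.658 FPKM in untreated knockout libraries, against means of 1.39 ± 0.119 FPKM in olaparib-treated wild-type libraries and 1.45 ± 0.243 FPKM in untreated wild-type libraries (SD, n = 3 each). Every knockout library lay below every wild-type library, and TRIM27 was too low in knockout cells to enter the comparison. Its log2 change with olaparib in knockout cells was 0.00 (SE 0.10, limma with Benjamini-Hochberg adjusted p = 0.972). PARP1 (chr1:226360691-226408079, minus strand) had 40.6, 38.7 and 40.9 FPKM with olaparib and 58.9, 51.5 and 55.2 FPKM untreated. The groups did not overlap, and PARP1 fell by 0.45 on the log2 scale (SE 0.07, limma adjusted p = 7.99e-05). Sums of the separately deposited transcript values gave a PARP1 change of -0.22 that did not pass the threshold (adjusted p = 0.738). PAX6 stayed under the entry level of the comparison, with 0.104, 0.436 and 0.179 FPKM with olaparib and 0.967, 1.18 and 0.934 FPKM untreated. The PAX6 groups did not overlap, and in a fit without the filter on low values its log2 change was -0.72 (limma adjusted p = 0.000487).

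The libraries of each group were close to each other. Correlations of log2 values across genes were 0.986 to 0.988 within the olaparib group, 0.985 within the untreated group and 0.957 to 0.959 between the groups. Summed FPKM ran from 812699 to 838092 with olaparib and from 822410 to 847887 untreated. Read counts were not among the files used, so absolute depth is unknown; steps between low FPKM values put the 6 libraries at 0.797 to 1.13 times the depth of untreated library 1. Loci without a gene name took 45.1 ± 0.886% of all FPKM with olaparib and 48.8 ± 0.846% untreated (SD, n = 3 each, two-sided exact permutation p = 0.1, the smallest that 3 against 3 allows). Of the line's markers, vimentin averaged 1609 FPKM with olaparib and 2322 FPKM untreated, a high level known for mesenchymal-like lines. The epithelial markers CDH1 (0.0358 and 0.0193 FPKM) and EPCAM (0.120 and 0.123 FPKM) and the estrogen receptor gene ESR1 (0.207 and 0.112 FPKM) were near 0 with olaparib and untreated, and PGR was listed at 0. By contrast, the keratin genes KRT8 (1163 and 1148 FPKM), KRT18 (624 and 1229 FPKM) and KRT19 (204.1 and 345.5 FPKM) were abundant. The luminal genes GATA3 (26.5 and 22.6 FPKM), XBP1 (10.6 and 42.4 FPKM), ERBB3 (23.3 and 26.9 FPKM) and MLPH (73.95 and 104.5 FPKM) were present as well. Of 24 epithelial genes listed 11 were members of the comparison, and of 12 luminal genes 4. Of 12 leukocyte markers 6 were listed at 0 in all 6 libraries, and the sum of the list was 8.83 to 10.2 FPKM with olaparib and 10.4 to 12.4 FPKM untreated. Sums of 12 endothelial and fibroblast markers were 9.28 to 9.59 FPKM with olaparib and 16.3 to 17.8 FPKM untreated, led by COL1A1 and COL3A1. At the edge of the entry rule, LINC01117 and CCDST had third-highest values of 1.0002 and 1.0003 FPKM, and RGS9 and ALG1L15P missed it with 0.99891 and 0.99974 FPKM.

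Olaparib went with small changes in very many genes of the knockout cells. Of the 14578 genes, 7134 (48.9%) passed an adjusted p of 0.05, with 3771 higher (25.9%) and 3363 lower (23.1%) under olaparib. The test was limma on log2(FPKM + 1), fitted on all 15764 genes that reached 1 FPKM in at least 3 of the 18 libraries, with Benjamini-Hochberg adjustment over all of them. The median log2 change over the 14578 genes was 0.03. Most called genes moved less than 2-fold: 411 genes (2.82%) were called and at least 2-fold higher, and 331 genes (2.27%) were called and at least 2-fold lower. A shift of at least 4-fold was seen in 45 genes called higher and 18 called lower. The 3 olaparib libraries did not overlap the 3 untreated libraries for 8363 genes (57.4%), with olaparib higher for 4415 (30.3%) and lower for 3948 (27.1%). All changes below are log2 differences of FPKM + 1, so that those of weakly expressed genes are understated. When the annotated genes alone were rescaled to a common total, 2881 genes were called higher and 3857 lower, so the split between directions depends on the scaling. After that rescaling the median log2 change of the members was -0.05. FPKM are shares of a library, and fewer cells of a kind cannot be told apart here from less RNA per cell.

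**Figure D1:**
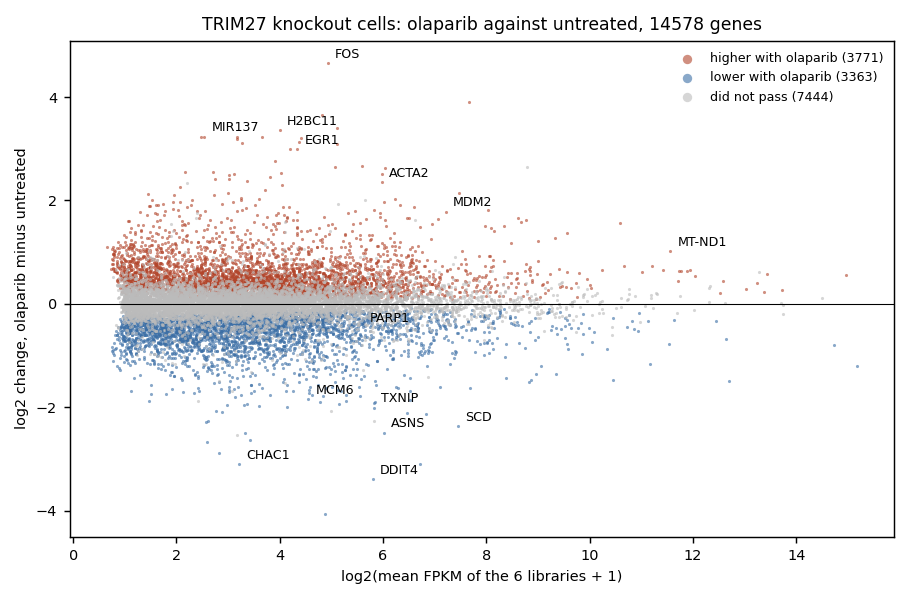
Each point is 1 of the 14578 genes, with log2(mean FPKM of the 6 libraries + 1) on the x axis and the log2 change, olaparib minus untreated, on the y axis. Genes called higher (3771), called lower (3363) and not passing (7444) have their own colours, and calls run over the whole range of expression.

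Genes that entered through 1 group alone had to differ: 282 genes reached 1 FPKM only in olaparib libraries and 214 only in untreated libraries. A library more than 3 times away from the rest of its group, on the FPKM + 1 scale, was found in 109 genes, of which 11 were called.

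The largest rises belonged to immediate early genes and histone genes. FOS (chr14:75278774-75282230, plus strand), a subunit of the AP-1 transcription factor, had 57.2, 57.2 and 57.8 FPKM with olaparib and 1.36, 1.08 and 1.55 FPKM untreated. All 3 olaparib values lay far above the untreated ones, with a log2 change of 4.65 (SE 0.08, limma adjusted p = 2.7e-14). EGR1, an early growth response transcription factor, had 34.0, 34.2 and 36.5 FPKM with olaparib and 3.63, 3.53 and 3.38 FPKM untreated. Again the groups were far apart, with a log2 change of 2.99 (SE 0.05, adjusted p = 1.24e-14). The hairpin locus of the microRNA gene MIR137 had 10.6, 9.33 and 8.53 FPKM with olaparib and 0.108, 0.124 and 0.108 FPKM untreated. It was near 0 in each untreated library (log2 change 3.23, adjusted p = 1.94e-06). The other 9 of the 12 largest rises were histone genes.

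The largest falls included genes known to be switched on under amino acid or energy stress, such as DDIT4, CHAC1 and ASNS. DDIT4 (chr10:72273920-72276036, plus strand), an inhibitor of mTORC1 signalling, had 9.10, 9.04 and 7.91 FPKM with olaparib and 102, 100.0 and 100.0 FPKM untreated. The groups did not come near each other, and DDIT4 fell by 3.40 on the log2 scale (SE 0.06, limma adjusted p = 1.24e-14). SCD, the desaturase that makes monounsaturated fatty acids, had 55.7, 56.4 and 55.0 FPKM with olaparib and 294, 288 and 292 FPKM untreated. Its libraries were tight in both groups, and SCD fell by 2.37 (SE 0.03, adjusted p = 8.89e-16). ULBP1, a ligand of the NKG2D receptor of natural killer cells, had 1.05, 0.843 and 1.15 FPKM with olaparib and 8.52, 8.86 and 9.07 FPKM untreated. It fell by 2.29 (adjusted p = 1.06e-12). The long noncoding RNA LINC01583 had 0.566, 0.619 and 0.713 FPKM with olaparib and 9.61, 8.88 and 9.60 FPKM untreated, a fall by 2.67 (adjusted p = 5.45e-13). TXNIP, which binds thioredoxin and restrains glucose uptake, had 20.7, 22.1 and 21.6 FPKM with olaparib and 91.0, 85.9 and 91.0 FPKM untreated. It fell by 2.01 (adjusted p = 1.57e-13). The rest of the 12 largest falls were CHAC1, JDP2, ASNS, PCK2, FAM111B, CXorf38 and PADI2.

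**Figure D2:**
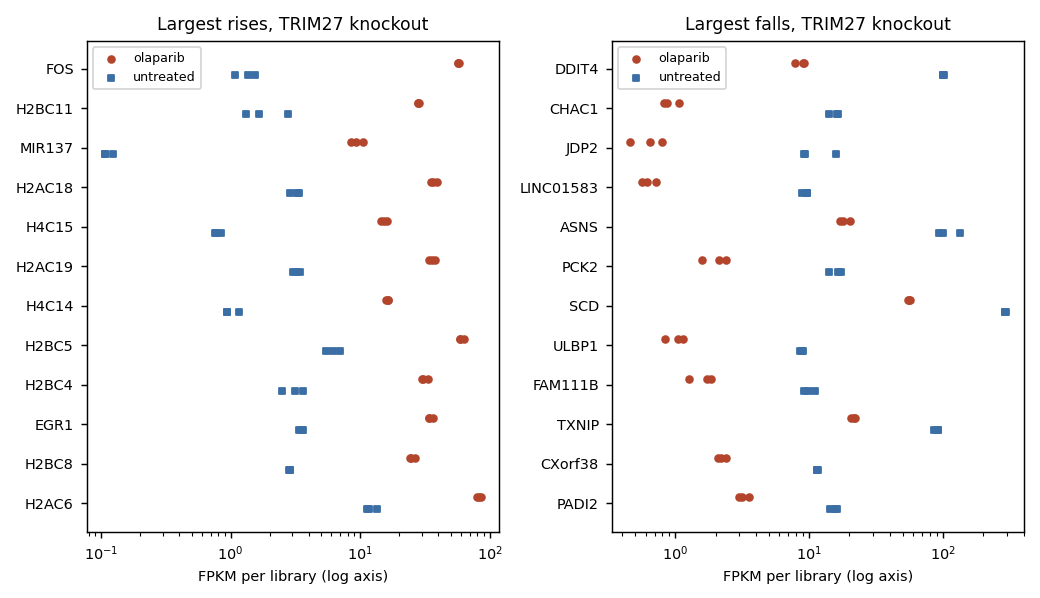
FPKM of each library on a log axis for the 12 largest rises and the 12 largest falls among genes with a symbol whose higher group averaged 5 FPKM or more, olaparib and untreated libraries in separate colours. In no row do the 3 olaparib and 3 untreated points overlap, which the choice of these genes required.

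Replication-dependent histone genes were higher under olaparib in every member that met the entry rule. These intronless genes supply new nucleosomes in S phase, and their messages normally end in a stem-loop rather than a poly(A) tail, so libraries from polyadenylated RNA see them only in part. Of 62 genes listed, 22 were members, and all 22 were called higher (median log2 change 2.25, against 0.03 over all 14578 genes). Among the 22, 8 reached 1 FPKM only in olaparib libraries and had to be higher, and 13 had at least 1 FPKM in all 6 libraries (median 2.67). The summed FPKM of all 62 genes, which no filter touched, was 683, 659 and 670 with olaparib and 113, 116 and 111 untreated. The sums of the groups were far apart. H2BC11 (an H2B gene) had 27.9, 28.0 and 28.7 FPKM with olaparib and 1.32, 2.77 and 1.65 FPKM untreated (log2 change 3.35, SE 0.17, limma adjusted p = 1.41e-09). H2AC6 (an H2A gene) had 83.0, 85.2 and 79.5 FPKM with olaparib and 11.7, 11.3 and 13.6 FPKM untreated (2.67, adjusted p = 1.32e-09). The linker histone gene H1-2 had 112, 102 and 105 FPKM with olaparib and 16.2, 18.97 and 18.6 FPKM untreated (2.51, adjusted p = 1.1e-12). No library of either group came near the other group in these 3 genes. The most abundant member, H2BC12, had 151, 145 and 155 FPKM with olaparib and 42.6, 42.5 and 36.4 FPKM untreated (1.87), so its relative rise was smaller. By class, log2 changes were 0.88 to 3.20 in 5 H2A genes, 1.71 to 3.35 in 8 H2B genes, 0.68 to 2.00 in 4 H3 genes and 1.08 to 3.18 in 4 H4 genes. H2AC18 and H2AC19, H3C14 and H3C15, and H4C14 and H4C15 are near-identical copies whose reads the counting may have shared out, so their values are uncertain one by one. Of 7 factors that serve histone messages, 6 were lower and 1 was higher. SLBP, which binds the stem-loop, fell by 0.40, ZNF473 fell by 0.71 and LSM10, of the processing snRNP, rose by 0.43. In wild-type cells the same 22 genes were called higher with olaparib, against 25.2% of all members. A difference between the genotypes in this response (the interaction) was called for 3 of the 22, against 1.73% of all members. These were H2BC7, H2BC21 and H4C8, each more negative in knockout cells. H4C8 missed the threshold in most fits that left out 1 library and H2BC7 in some (limma adjusted p 0.0552 to 0.105). H2BC21 missed it with a pseudocount of 0.1 (0.0797). With siPARP1 in knockout cells, 5 of the 22 histone genes were called higher and 1 lower, against 31.6% and 24.3% of all members. The siPARP1 comparison shares its untreated libraries with the olaparib one and was made at 48 h.

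The promoters of 2 H2B genes are shown because the olaparib and untreated libraries were far apart in both and because H2B promoters are known for an octamer that binds Oct-1. The sequences run from 250 bases before to 50 after the RefSeq start, GRCh38.p14, both on the minus strand of chromosome 6 (chr6:27132746-27133045 for H2BC11 and chr6:26216639-26216938 for H2BC8). Capitals mark the octamer ATTTGCAT.
H2BC11: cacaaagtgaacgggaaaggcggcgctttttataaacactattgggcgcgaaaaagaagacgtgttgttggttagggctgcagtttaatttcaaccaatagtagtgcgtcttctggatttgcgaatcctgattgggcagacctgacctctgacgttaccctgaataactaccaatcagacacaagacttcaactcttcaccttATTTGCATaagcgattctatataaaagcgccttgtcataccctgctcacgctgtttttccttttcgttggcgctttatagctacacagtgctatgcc
H2BC8: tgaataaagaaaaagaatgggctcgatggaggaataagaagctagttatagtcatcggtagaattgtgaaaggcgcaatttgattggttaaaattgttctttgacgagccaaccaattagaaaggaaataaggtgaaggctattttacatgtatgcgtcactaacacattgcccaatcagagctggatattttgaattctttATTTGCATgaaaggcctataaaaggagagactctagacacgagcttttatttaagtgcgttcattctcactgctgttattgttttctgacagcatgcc
The octamer, searched on both strands, was present in the windows of 7 of the 8 H2B members (87.5%) and in 1.8% of all 27305 promoters of the table. It began 46 to 49 bases before the start in H2BC8, H2BC11, H2BC12, H2BC18 and H2BC21, and 111 and 123 bases before it in H2BC7 and H2BC4. A match is a description of these letters, not of a binding site.

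p53 target genes were mostly higher under olaparib. The 37 genes listed were all members: 30 were higher, 4 lower and 3 did not pass (median 0.58). MDM2, a ubiquitin ligase gene of the list's feedback group, had 231, 227 and 230 FPKM with olaparib and 67.1, 65.7 and 65.3 FPKM untreated. The groups were far apart, with a log2 change of 1.78 (SE 0.04, limma adjusted p = 8.7e-14). GDF15, a secreted stress hormone, had 140, 130 and 138 FPKM with olaparib and 39.4, 46.3 and 41.9 FPKM untreated (1.66, adjusted p = 8.2e-10). BTG2, an antiproliferative deadenylase cofactor, had 28.8, 30.1 and 30.2 FPKM with olaparib and 9.05, 8.82 and 8.86 FPKM untreated (1.63, adjusted p = 1.1e-12). None of these 3 genes overlapped between groups. In the arrest and feedback group, ZMAT3 rose by 1.76, PLK3 by 1.65, TIGAR by 1.45, TP53INP1 by 1.36 and RRM2B, a ribonucleotide reductase subunit, by 1.12. Among the apoptosis genes, the decoy receptors TNFRSF10C and TNFRSF10D rose by 1.14 and 1.05, and TP53I3 rose by 1.03. The members called lower were CCNG2 (-0.94), PMAIP1 (-0.63), SESN2 (-0.58) and PERP (-0.24). CDKN1A, which encodes the p21 inhibitor of cyclin-dependent kinases, had 43.4, 160 and 42.5 FPKM with olaparib and 73.6, 77.4 and 74.5 FPKM untreated. Olaparib library 2 lay above and libraries 1 and 3 below every untreated library, and the gene did not pass (log2 change -0.17, adjusted p = 0.83). In wild-type cells 31 of the 37 targets were higher and 3 lower, against 25.2% and 21.3% of all members, and PMAIP1 differed between genotypes (interaction -0.76). With siPARP1 in knockout cells 12 were higher and 13 lower, against 31.6% and 24.3% of all members, and MDM2 changed by -0.36.

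**Figure D3:**
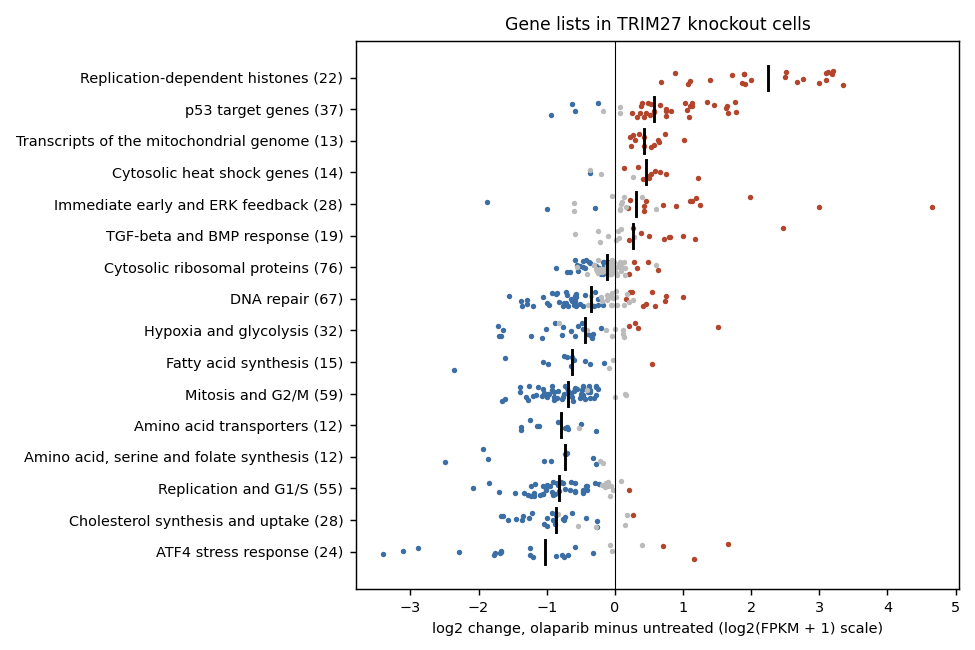
Log2 change, olaparib minus untreated in knockout cells, of each member of 16 gene lists, with the list median as a bar the number of members in brackets, and genes called higher in red, called lower in blue and not passing in grey. Histone genes (median 2.25) and p53 target genes (0.58) lie mostly to the right of 0, and replication (-0.81) and mitosis genes (-0.68) mostly to the left.

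Genes of DNA replication and S-phase entry were mostly lower. Of 57 listed, 55 were members, with 1 higher, 44 lower and 10 not passing (median -0.81). MCM6, a subunit of the replicative helicase, had 9.39, 9.22 and 9.004 FPKM with olaparib and 35.6, 36.4 and 35.0 FPKM untreated. The groups were far apart, and MCM6 fell by 1.85 (SE 0.04, limma adjusted p = 1.8e-13). MCM2, another subunit, had 7.85, 8.30 and 7.86 FPKM with olaparib and 22.4, 25.2 and 23.8 FPKM untreated, a fall by 1.46 (adjusted p = 2.6e-10). FAM111B, a protease linked to replication, had 1.85, 1.28 and 1.71 FPKM with olaparib and 9.88, 9.11 and 11.1 FPKM untreated, a fall by 2.08. Both genes were lower in each olaparib library than in any untreated one. Among origin licensing and helicase genes, 15 of 17 were lower, and the licensing factor CDT1 fell by 1.69. Among polymerases, clamp loaders and nucleases 16 of 19 were lower; the primase subunit PRIM1 fell by 1.23 and the polymerase subunit POLE2 by 1.19. The sliding clamp PCNA had 84.4, 88.8 and 80.6 FPKM with olaparib and 76.7, 82.1 and 80.1 FPKM untreated, and these overlapping values did not pass (0.09, adjusted p = 0.11). The thymidylate synthase gene TYMS was the member called higher (0.21), while RRM2 fell by 1.06. Cyclin E2 (CCNE2) fell by 1.27 and E2F1 by 1.01; CCNE1, CDC25A, E2F7 and CDCA7 did not pass. In wild-type cells 52 of the 55 were lower, none higher. The difference between genotypes (the interaction) was called for 5 of the 55, each more positive in knockout cells, against 1.45% of all members. Of these, CCNE1 missed the threshold in most fits that left out 1 library (limma adjusted p 0.0536 to 0.0643).

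MCM6 is shown as the replication gene with the largest fall among helicase subunits (chr2:135876394-135876693, minus strand, RefSeq, GRCh38.p14), with capitals at the E2F motif TTTNGCGC. The window holds 2 pairs of overlapping matches, each pair on both strands.
MCM6: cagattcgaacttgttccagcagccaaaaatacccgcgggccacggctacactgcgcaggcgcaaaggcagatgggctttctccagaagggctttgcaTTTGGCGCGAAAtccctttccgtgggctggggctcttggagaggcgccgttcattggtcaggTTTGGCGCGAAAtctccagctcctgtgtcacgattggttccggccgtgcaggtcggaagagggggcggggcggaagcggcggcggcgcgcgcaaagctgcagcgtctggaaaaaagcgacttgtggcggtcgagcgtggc
Of the 45 replication members with a promoter in the table, 17 (37.8%) held TTTNGCGC on either strand, against 1.83% of all promoters and 3.13% of the promoters of all members.

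Mitotic and G2/M genes were lower. All 59 listed were members: 55 were lower, none was higher and 4 did not pass (median -0.68). CDK1, the kinase that drives mitotic entry, had 26.6, 27.4 and 25.3 FPKM with olaparib and 73.8, 67.4 and 71.8 FPKM untreated. It fell by 1.39, with no overlap (SE 0.04, limma adjusted p = 5.2e-12). TOP2A, the topoisomerase that untangles sister chromatids, had 67.3, 69.3 and 70.2 FPKM with olaparib and 160, 156 and 162 FPKM untreated, a fall by 1.20 (adjusted p = 2.0e-12). PLK1, a mitotic kinase, had 16.98, 17.5 and 17.3 FPKM with olaparib and 26.5, 25.9 and 27.4 FPKM untreated, a smaller fall by 0.60. Neither gene overlapped between groups. Elsewhere in the list, SKA1, a kinetochore gene that the list counts with the proteolysis genes, fell by 1.65, the kinesin KIF15 by 1.61, cyclin A2 (CCNA2) by 1.26 and AURKB by 1.27. Cyclin B1 (CCNB1) fell by 0.24. All 17 kinetochore, checkpoint and chromosome genes were lower, and so were 13 of 14 kinases and cyclins, 14 of 16 spindle and motor genes, 7 of 8 proteolysis genes and 4 of 4 transcription factors. The members that did not pass were AURKA, KIF20B, PRC1 and PTTG1. Leaving out 1 library at a time gave 51 to 53 lower calls and at most 1 higher call. In wild-type cells 55 were lower as well. The interaction was called for 7, each more positive in knockout cells, against 1.45% of all members. Of these, ANLN, CENPE and SGO2 missed the threshold in most fits that left out 1 library. Where they missed it, their limma adjusted p ran from 0.0501 to 0.116. NDC80 missed it in some of these fits, and CCNB1 without untreated wild-type library 1. With siPARP1 in knockout cells 55 of the 59 were lower.

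Promoters of CDK1 (chr10:60778081-60778380, plus strand) and PLK1 (chr16:23678639-23678938, plus strand) are shown as the 2 mitotic kinase genes described above (RefSeq, GRCh38.p14). Capitals mark the cell cycle homology region TTTGAA and the CCAAT box, elements known from promoters of G2/M genes.
CDK1: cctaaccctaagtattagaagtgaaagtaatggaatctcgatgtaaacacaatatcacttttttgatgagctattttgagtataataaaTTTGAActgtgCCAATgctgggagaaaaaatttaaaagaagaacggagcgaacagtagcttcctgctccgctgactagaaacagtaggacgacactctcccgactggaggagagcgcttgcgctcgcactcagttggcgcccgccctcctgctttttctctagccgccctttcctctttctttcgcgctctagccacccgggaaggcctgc
PLK1: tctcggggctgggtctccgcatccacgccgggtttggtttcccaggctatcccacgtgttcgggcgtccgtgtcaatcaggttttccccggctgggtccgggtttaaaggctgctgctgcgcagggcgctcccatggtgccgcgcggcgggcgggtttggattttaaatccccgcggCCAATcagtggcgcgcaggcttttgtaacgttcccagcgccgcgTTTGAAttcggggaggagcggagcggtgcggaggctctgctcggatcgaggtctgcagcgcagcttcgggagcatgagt
TTTGAA, on either strand, was in 32 of 51 G2/M promoters (62.7%), against 15.4% of all promoters and 9.26% of those of all members. CCAAT, also on either strand, was in 31 of 51 (60.8%), against 35.7% of all promoters and 37.1% of those of all members.

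The D-type cyclin genes CCND1 and CCND2 were higher under olaparib. CCND1 (cyclin D1), the activator of CDK4 and CDK6, had 249, 245 and 246 FPKM with olaparib and 124, 120 and 119 FPKM untreated. All olaparib libraries were higher, with a log2 change of 1.02 (SE 0.04, limma adjusted p = 2.1e-11). CCND2 rose by 0.50 and CDK4 by 0.59, while the inhibitor gene CDKN1B fell by 0.71. CCND3 rose by 1.12 and CDK2 fell by 0.91, but both lost the call in several fits that left out 1 library. Their limma adjusted p there was 0.0609 to 0.141 for CCND3 and 0.0624 to 0.168 for CDK2. Of the 11 members in this list 5 were higher, 3 lower and 3 did not pass, against 25.9% higher and 23.1% lower over all members. LMNB1, lamin B1 of the nuclear envelope, had 17.2, 20.4 and 19.7 FPKM with olaparib and 47.8, 57.6 and 55.6 FPKM untreated, and fell by 1.44 without overlap. LMNA did not pass.

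DNA repair genes were lower more often than higher, mainly in homologous recombination and the Fanconi pathway. All 67 listed were members, with 10 higher, 38 lower and 19 not passing (median -0.36). Over all members 25.9% were higher and 23.1% lower, and each count of this paragraph stands against these shares. In homologous recombination, which repairs double-strand breaks from the sister chromatid, 15 of 18 were lower. EXO1, a nuclease that resects break ends, had 5.31, 5.23 and 4.90 FPKM with olaparib and 14.6, 18.2 and 18.3 FPKM untreated. It fell by 1.55 without overlap (SE 0.07, limma adjusted p = 6.5e-10). BARD1, the partner of BRCA1, fell by 1.20, BRCA2 by 0.72 and BRCA1 by 0.84; the BRCA1 fall missed the threshold without untreated library 3 (-0.67, limma adjusted p = 0.0542). RAD51C went the other way, with 32.4, 26.8 and 31.5 FPKM with olaparib and 13.8, 14.5 and 15.5 FPKM untreated (1.00, adjusted p = 2.1e-06). It was higher in each olaparib library. In the Fanconi pathway, which removes interstrand crosslinks, 9 of 11 were lower, from FANCG (-0.92) to FANCF (-0.25). Single-strand break and base excision repair was split, with 2 of 12 higher and 5 lower: the glycosylase gene NEIL3 fell by 1.28, and XRCC1, POLB and OGG1 did not pass. Among end joining, mismatch and excision repair genes 6 of 16 were higher, including the damage sensors XPC (0.75) and DDB2 (0.46). In this group 4 were lower, a share near the 23.1% of all members. The replication checkpoint adaptor CLSPN fell by 1.36 and the kinase CHEK1 by 0.59, and ATM did not pass.

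Among PARP enzymes and genes of ADP-ribose turnover, 7 of 23 members were higher and 12 lower (median -0.18), against 25.9% and 23.1% of all members. PARP2 fell by 0.70 and the antiviral mono-ADP-ribosyltransferases PARP9 and PARP14 by 0.80 and 0.77, while PARP11 rose by 0.55 and the tankyrase TNKS2 by 0.42. ZC3HAV1, a zinc finger antiviral PARP, rose by 0.48 in knockout cells, against -0.01 in wild-type cells (interaction 0.50, adjusted p = 7.6e-04). HPF1, which directs PARP1 to serine residues, fell by 0.27, and PARG, which degrades the chains, rose by 0.29. NMNAT1, the nuclear NAD+ synthase, rose by 0.81, and the hydrolase gene MACROD1 fell by 0.70.

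Genes of the integrated stress response, with its transcription factor ATF4, were mostly lower. Of 24 members 18 were lower, 3 higher and 3 did not pass (median -1.03). The 2 parts of the list differed. Of 13 effectors 12 were lower and 1 higher (median -1.24). Of 11 regulators 6 were lower, 2 higher and 3 did not pass (median -0.32). Of the 24, 2 reached 1 FPKM only in untreated libraries, and of the 20 at 1 FPKM or more in all 6 libraries 14 were lower and 3 higher. ATF4 itself had 14.01, 16.9 and 14.8 FPKM with olaparib and 72.8, 41.2 and 43.1 FPKM untreated. Untreated library 1 stood above the other untreated ones, the groups did not overlap, and ATF4 fell by 1.67 (SE 0.19, limma adjusted p = 4.4e-06). CHAC1, which degrades glutathione, had 1.06, 0.828 and 0.868 FPKM with olaparib and 14.1, 16.3 and 16.1 FPKM untreated, and fell by 3.10. CEBPG, a bZIP partner of ATF4, had 5.49, 5.30 and 5.44 FPKM with olaparib and 20.8, 20.8 and 20.9 FPKM untreated, and fell by 1.77 with very tight libraries. JDP2, an AP-1 repressor, fell by 2.89, the pseudokinase gene TRIB3 by 1.77, the cystine transporter gene SLC7A11 by 1.24 and DDIT3 (CHOP) by 1.20. ATF5 (1.16), PPP1R15A (0.70) and GDF15 (1.66) were higher, and ATF3, CEBPB and EIF2AK4 did not pass. The interaction was called for 6 of the 24, all more negative in knockout cells, against 1.73% of all members: DDIT4 (-0.97), CHAC1 (-1.41), STC2 (-0.57), SLC7A11 (-0.43), DDIT3 (-0.73) and SESN2 (-0.33). Of these, DDIT3 (limma adjusted p 0.0564 to 0.0748) and SESN2 (0.0568 to 0.0801) missed the threshold in most fits that left out 1 library.

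Enzymes and carriers of amino acid supply fell as well. In amino acid, serine and folate synthesis 10 of 12 members were lower and none higher (median -0.73). ASNS, asparagine synthetase, had 20.3, 18 and 16.9 FPKM with olaparib and 94.0, 99.7 and 135 FPKM untreated. It fell by 2.50 without overlap (limma adjusted p = 2.69e-07). MTHFD2, a mitochondrial folate enzyme, had 37.2, 39.3 and 39.2 FPKM with olaparib and 140, 137 and 150 FPKM untreated, and fell by 1.86. PHGDH, the entry enzyme of serine synthesis, fell by 1.94; the folate enzyme gene MTHFD1 did not pass. Of 20 cytosolic aminoacyl-tRNA synthetases 11 were lower, 3 higher and 6 did not pass (median -0.32). AARS1, for alanine, had 19.4, 20.2 and 20.8 FPKM with olaparib and 75.9, 76.2 and 65.1 FPKM untreated (a fall by 1.79), CARS1 fell by 1.26, and HARS1 (0.67) and RARS1 (0.40) were among the 3 higher ones. Of 12 amino acid transporters 11 were lower and none higher (median -0.79), among them the glycine carrier SLC6A9 (-1.38), SLC1A4 (-1.37) and SLC7A5 (-1.15).

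Windows of CHAC1 (chr15:40953221-40953520, plus strand), ASNS (chr7:97872359-97872658, minus strand) and AARS1 (chr16:70289457-70289756, minus strand) are shown because these genes had large falls and carry the C/EBP-ATF composite element TGATGNAA, in capitals, or its reverse complement TTNCATCA (RefSeq, GRCh38.p14).
CHAC1: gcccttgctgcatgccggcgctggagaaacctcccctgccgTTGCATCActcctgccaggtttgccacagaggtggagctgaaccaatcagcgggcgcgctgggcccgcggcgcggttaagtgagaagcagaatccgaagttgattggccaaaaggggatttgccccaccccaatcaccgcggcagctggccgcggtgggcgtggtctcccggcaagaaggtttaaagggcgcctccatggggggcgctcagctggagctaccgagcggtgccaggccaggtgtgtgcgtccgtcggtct
ASNS: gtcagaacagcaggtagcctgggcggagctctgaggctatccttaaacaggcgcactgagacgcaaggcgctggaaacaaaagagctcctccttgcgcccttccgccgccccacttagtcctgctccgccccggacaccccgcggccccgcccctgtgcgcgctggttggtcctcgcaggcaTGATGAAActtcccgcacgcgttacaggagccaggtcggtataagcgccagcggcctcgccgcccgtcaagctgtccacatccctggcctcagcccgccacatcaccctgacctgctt
AARS1: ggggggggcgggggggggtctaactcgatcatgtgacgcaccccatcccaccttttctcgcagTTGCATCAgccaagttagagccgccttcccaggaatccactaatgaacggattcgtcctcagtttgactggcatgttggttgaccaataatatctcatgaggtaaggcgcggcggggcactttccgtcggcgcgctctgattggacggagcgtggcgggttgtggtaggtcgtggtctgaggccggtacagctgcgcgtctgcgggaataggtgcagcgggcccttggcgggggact
TGATGNAA, on either strand, was in 6 of 16 synthetase promoters (37.5%), 3 of 10 transporter promoters, 2 of 7 promoters of the synthesis list (28.6%) and 2 of 21 of the ATF4 list (9.5%), against 3.67% of all promoters and 1.56% of those of all members.

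Lipid synthesis genes were lower under olaparib. Of 28 members in cholesterol synthesis and uptake 22 were lower, 1 higher and 5 did not pass (median -0.87). HMGCS1, which makes the first dedicated intermediate of the pathway, had 14.1, 13.6 and 12.8 FPKM with olaparib and 45.7, 43.6 and 42.6 FPKM untreated. It fell by 1.64 without overlap (SE 0.07, limma adjusted p = 1.1e-10). SREBF2, the transcription factor that activates the pathway, had 11.3, 11.2 and 11 FPKM with olaparib and 29.98, 30.8 and 30.01 FPKM untreated, and fell by 1.36. INSIG1, its sterol-sensing brake and target, fell by 1.68, MSMO1 by 1.57 and DHCR7 by 1.45; SCAP was the member called higher (0.27), a call lost without olaparib library 1 or untreated library 1 or 3 (0.23 to 0.25, limma adjusted p 0.0626 to 0.0777). In fatty acid synthesis 12 of 15 members were lower and 1 higher (median -0.62). FASN, fatty acid synthase, had 36.5, 35.2 and 37.98 FPKM with olaparib and 108, 126 and 109 FPKM untreated, and fell by 1.61. FADS2 fell by 1.06 and FADS1 by 0.98, and ACSL1 rose by 0.55. The sterol regulatory element TCACNCCAC, on either strand, was in 1 of 22 cholesterol promoters (4.5%) and 0 of 14 fatty acid promoters, against 1.15% of all promoters. In wild-type cells 20 of the 28 cholesterol genes were lower and 1 higher; with siPARP1 in knockout cells, 22 were lower and 2 higher.

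Hypoxia-response and glycolysis genes were lower in 20 of 32 members and higher in 4 (median -0.44). The higher calls were 2 without olaparib library 2, untreated library 1 or untreated library 3 and with median-of-ratios scaling, and 1 with annotated genes rescaled. VEGFA, the angiogenic growth factor, fell by 1.67, PFKFB4 and PDK1, regulators of glycolysis and of pyruvate entry into mitochondria, by 1.71 and 1.64, and NDRG1 by 1.23. ADM, the vasodilator adrenomedullin, went the other way, with 101, 97.3 and 94.6 FPKM with olaparib and 32.2, 35.6 and 32.8 FPKM untreated. Each olaparib library was higher (log2 change 1.51, SE 0.23, limma adjusted p = 9.8e-05). The interaction was called for 8 of the 32, all more negative in knockout cells, against 1.73% of all members. Of these, NDRG1 missed the threshold in most fits that left out 1 library (limma adjusted p 0.0519 to 0.0636). PGK1, a glycolytic kinase, changed by -0.77 in knockout and -0.24 in wild-type cells (interaction -0.53), and BNIP3, a mitophagy receptor, by -0.58 and 0.06 (interaction -0.64).

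The 13 protein-coding messages of the mitochondrial genome were all higher (median 0.43). In the fit without a filter on low values MT-ND4, MT-CO1, MT-CO3 and MT-ATP8 did not pass. MT-ATP8 also missed the threshold without olaparib library 2 or 3 or untreated library 1 or 2 (limma adjusted p 0.0561 to 0.0963). MT-ND1, a complex I subunit, had 4112, 3868 and 4175 FPKM with olaparib and 2031, 1968 and 2021 FPKM untreated. The groups were far apart, with a log2 change of 1.01 (SE 0.05, limma adjusted p = 3.7e-10). MT-ND4 of the same complex rose by 0.22, the smallest of the 13. Summed over the 13, FPKM were 86837, 81731 and 88440 with olaparib and 65283, 61625 and 66268 untreated. All genes of the mitochondrial genome, ribosomal and transfer RNAs included, held a share of the annotated genes' FPKM of 24.5 ± 0.904% with olaparib and 19.7 ± 0.633% untreated (SD, n = 3 each, two-sided exact permutation p = 0.1, the smallest possible). In wild-type cells 9 of the 13 were higher, and with siPARP1 in knockout cells all 13. Because FPKM are shares, a larger mitochondrial share can lower other values. In the same libraries the share of unnamed loci was 45.1% with olaparib and 48.8% untreated, and the median log2 change of all members was 0.03. The part of these shifts in the falls above was not tested.

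**Figure D4:**
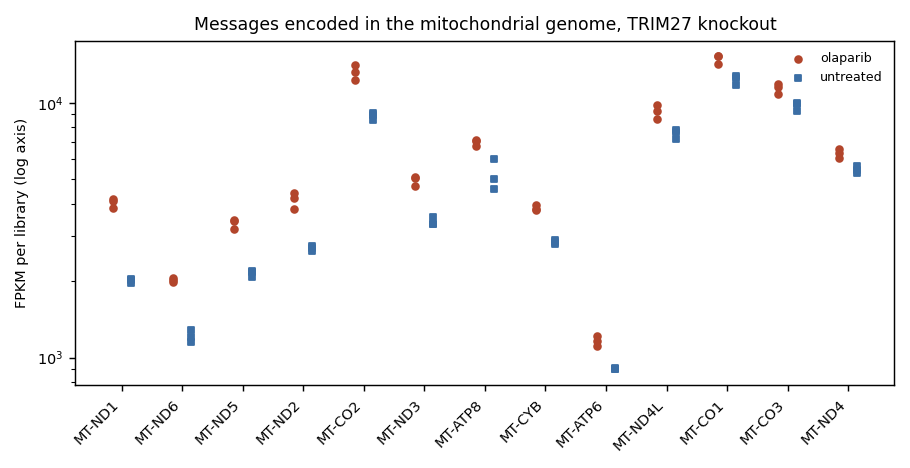
FPKM of each library on a log axis for the 13 protein-coding messages of the mitochondrial genome, olaparib and untreated libraries in separate colours. The gap is widest for MT-ND1 (log2 change 1.01) and narrowest for MT-ND4 (0.22).

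Ribosomal protein genes moved little. Of 76, 5 were higher, 26 lower and 45 did not pass (median -0.11), against 25.9% higher and 23.1% lower over all members. RPL3 fell by 0.87 and RPSA by 0.70, and RPS26 rose by 0.63. With annotated genes rescaled 3 were higher and 39 lower, so this count leans on the scaling. Without olaparib library 3 there were 17 lower and 3 higher calls, without olaparib library 1 there were 3 higher calls, and with the 6 libraries alone 2. Of 17 ribosome biogenesis factors 6 were higher, led by RRP12 (0.64), and 2 lower.

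Cytosolic heat shock genes were mostly higher, and genes of the endoplasmic reticulum were split. Of 14 cytosolic heat shock genes 10 were higher and 1 lower (median 0.46). HSPA8, the constitutive HSP70, had 709, 722 and 727 FPKM with olaparib and 297, 318 and 314 FPKM untreated. It rose by 1.21 in knockout cells (SE 0.14, limma adjusted p = 6.5e-06), against 0.00 in wild-type cells (interaction 1.21, adjusted p = 0.0043). HSPA1A (0.75) and HSPA1B (0.66), which share reads, and the cochaperone gene DNAJA1 (0.58) were higher as well. HSP90AA1 was the gene called lower (-0.36), a call lost without olaparib library 2 or untreated library 1 or 2 (-0.35 to -0.24, limma adjusted p 0.058 to 0.123). In wild-type cells 5 of the 14 were higher and 3 lower. The interaction was called for 5, all more positive in knockout cells, against 1.45% of all members. Of these, HSPH1 missed the threshold in most fits that left out 1 library (limma adjusted p 0.0666 to 0.0865). Of 24 genes of the endoplasmic reticulum and unfolded protein response 4 were higher, 8 lower and 12 did not pass (median -0.03). The shares of all members were 25.9% higher and 23.1% lower. Without olaparib library 2 or untreated library 1 or 2 the higher calls of this list were 2. XBP1, a transcription factor of that response, had 12.3, 8.71 and 10.7 FPKM with olaparib and 35.9, 50.2 and 41.1 FPKM untreated, and fell by 1.90. HSPA5 (BiP), the main chaperone there, had 91.5, 90.6 and 87.5 FPKM with olaparib and 153, 150 and 154 FPKM untreated. It fell by 0.75 in knockout and by 1.38 in wild-type cells (interaction 0.63, adjusted p = 6.4e-06), but with transcript sums neither the knockout fall nor the interaction passed (interaction -2.81, adjusted p = 0.683). HERPUD1 fell by 1.27 and SELENOS rose by 0.61.

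Of 18 NRF2 target genes 9 were higher, 4 lower and 5 did not pass (median 0.17), against 25.9% higher and 23.1% lower over all members. Thioredoxin (TXN) and sulfiredoxin (SRXN1) each rose by 0.72 and ferritin light chain (FTL) by 0.66, while SLC7A11 fell by 1.24. Of 27 lysosome and autophagy genes 8 were higher, a share near the 25.9% of all members, 3 were lower and 16 did not pass (median 0.05). Among them SQSTM1 (p62), the autophagy receptor, had 96.3, 93.7 and 103 FPKM with olaparib and 46.7, 43.0 and 44.3 FPKM untreated. It rose by 1.11 without overlap (limma adjusted p = 1.0e-09).

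Beyond FOS and EGR1, early genes and their feedback regulators rose unevenly. Of 28 members 14 were higher, 3 lower and 11 did not pass (median 0.31), against 25.9% higher and 23.1% lower over all members. FOSB rose by 1.98 and JUNB by 1.11, while JUND fell by 1.00. JUN rose by 0.19 in knockout and 0.72 in wild-type cells (interaction -0.53). FOSL2 had 9.46, 38.1 and 8.91 FPKM with olaparib and 58.7, 56.7 and 56.9 FPKM untreated. It was lower in each olaparib library, with library 2 nearer to the untreated ones (-1.87, SE 0.35, limma adjusted p = 0.000481). DUSP6, DUSP1 and DUSP5, phosphatases that switch MAP kinases off, rose by 1.25, 1.19 and 1.14. MYC had 6.39, 36.1 and 33.3 FPKM with olaparib and 5.30, 8.68 and 43.3 FPKM untreated. With low and high libraries in both groups, it did not pass (adjusted p = 0.66).

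TGF-beta and BMP response genes were higher more often than lower, and targets of YAP moved in both directions. F3 (tissue factor), the starter of coagulation, had 414, 405 and 408 FPKM with olaparib and 114, 116 and 115 FPKM untreated. It rose by 1.82 (SE 0.03, limma adjusted p = 3.0e-14), against 2.34 in wild-type cells (interaction -0.52). ANKRD1 rose by 1.55 and CCN2 by 1.26, AXL fell by 0.53 and CCN1 did not pass; in all, 4 of 15 YAP/TEAD genes were higher and 3 lower (median -0.02), shares near the 25.9% and 23.1% of all members. Of 19 TGF-beta and BMP genes 10 were higher and none lower (median 0.26). ID2, an inhibitor of DNA binding by basic helix-loop-helix factors, had 21.8, 23.8 and 22.8 FPKM with olaparib and 3.42, 3.28 and 3.24 FPKM untreated (2.46, adjusted p = 1.1e-12). It was far higher in each olaparib library. PMEPA1 rose by 1.18, the ligands BMP4 and INHBA by 0.99 and 0.81, and ID1 by 0.80.

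NF-kB targets split between chemokines and the rest. Of 20 members 7 were higher, 6 lower and 7 did not pass, against 25.9% higher and 23.1% lower over all members. The neutrophil chemokine genes CXCL1 (1.86), CXCL2 (1.79) and CXCL8 (1.43) and the cytokine gene IL6 (1.54) were higher, with libraries given in the comparison of genotypes. TNFAIP3, IL1A, TNFAIP2 and ICAM1 fell by 0.88, 0.83, 0.79 and 0.63. Of 30 interferon-stimulated genes 2 were higher, 14 lower and 14 did not pass (median -0.32). Of the 30, 4 reached 1 FPKM only in untreated libraries and 1 only in olaparib libraries, and of the 23 at 1 FPKM or more in all 6 libraries 10 were lower and 1 higher. IFI44 fell by 1.21, IFI35 by 1.06, USP18 by 1.02 and OAS1 by 0.91. IFIT1 was an exception, with 22.2, 21.8 and 21.8 FPKM with olaparib and 10.4, 10.3 and 9.75 FPKM untreated (1.04, limma adjusted p = 7.4e-10). It was higher in each olaparib library.

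The series addresses invasion, and genes of matrix and its turnover moved in both directions. Of 21 proteases and inhibitors 5 were higher and 9 lower (median -0.15). Over all members 25.9% were higher and 23.1% lower, and each list count of this paragraph stands against these shares. PLAT, tissue plasminogen activator, had 111, 114 and 75.8 FPKM with olaparib and 287, 324 and 311 FPKM untreated, and fell by 1.62 without overlap (limma adjusted p = 6.0e-06). The metalloproteinase genes MMP24 and MMP2 fell by 1.17 and 0.89, and the inhibitor gene TIMP3 rose by 1.49. Of 21 matrix genes 7 were higher and 9 lower. LOX, which crosslinks collagen, had 24.2, 24.1 and 20.6 FPKM with olaparib and 89.3, 87.6 and 90.4 FPKM untreated, and fell by 1.92 without overlap. COL7A1 rose by 1.83, THBS1 by 0.49 and FN1 (fibronectin) fell by 0.37. Of 17 integrins and laminins 5 were higher, led by LAMB2 (1.11), and 6 lower, led by ITGA2 (-1.60). ACTA2, smooth muscle actin, had 104, 108 and 101 FPKM with olaparib and 19.8, 21.1 and 18.1 FPKM untreated (2.35, adjusted p = 7.0e-13). Every olaparib library was far higher. Of 14 mesenchymal markers 5 were higher, among them NT5E (1.11) and SNAI2 (0.81), and 2 lower, VIM (-0.53) and ENG (-0.32); ENG kept its call only without untreated library 3 among the fits that left out 1 library (otherwise -0.33 to -0.28, limma adjusted p 0.0705 to 0.115). Of 11 epithelial markers 6 were lower, led by the keratins KRT18 (-0.98) and KRT19 (-0.76), and CLDN1 was higher (0.63). Among 11 partners of TRIM27 and PAX6 in the list, WASHC2A (0.48) and WASHC2C (0.35), of the WASH complex on endosomes, were higher and USP7 did not pass. WASHC5 (0.18, higher) and MAGEF1 (-0.26, lower) were called as well, but lost the call in 5 and in 2 of the fits that left out 1 of the 6 libraries. The lower calls numbered 0 to 3 over the alternatives.

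The olaparib response of knockout cells was set against that of wild-type cells in the same fit; these 2 comparisons share no library. In wild-type cells 6774 of the 14578 genes were called (46.5%). Of the 3771 genes called higher in knockout cells 2768 were called higher in wild-type cells too, and of the 3363 called lower 2413 were called lower. A difference between the responses passed the interaction test for 463 genes (3.18%), with 211 more positive (1.45%) and 252 more negative (1.73%) in knockout cells. This split depends on the scaling, with 268 more positive and 225 more negative under median-of-ratios scaling and 175 and 312 with annotated genes rescaled. The interaction was at least 2-fold for 25 genes (0.171%). Without untreated wild-type library 1, 298 genes passed. The count of more negative genes was 149 without that library, 161 and 165 without olaparib wild-type library 1 or 2, and 166 without olaparib knockout library 1.

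Neutrophil chemokine genes were among those with unlike responses in the 2 genotypes. CXCL1 (chr4:73869393-73871242, plus strand) had 26.2, 27.8 and 28.6 FPKM in olaparib-treated and 6.86, 6.66 and 6.99 FPKM in untreated knockout cells, against 34.4, 35.7 and 33.4 FPKM in olaparib-treated and 44.7, 43.6 and 41.8 FPKM in untreated wild-type cells. Olaparib libraries were higher in knockout cells and lower in wild-type cells (interaction 2.19, SE 0.06, limma adjusted p = 1.65e-11). CXCL8 (chr4:73740506-73743716, plus strand) had 5.12, 5.60 and 5.19 FPKM with olaparib and 1.17, 1.25 and 1.64 FPKM untreated in knockout cells, against 13.5, 14.3 and 12.8 FPKM with olaparib and 23.1, 22.9 and 23.0 FPKM untreated in wild-type cells. The directions were again opposite (interaction 2.15, adjusted p = 1.63e-08). IL6 had 17.02, 17.9 and 19.03 FPKM with olaparib and 5.59, 5.74 and 5.20 FPKM untreated in knockout cells, against 19.2, 20.6 and 18.4 FPKM with olaparib and 14.9, 16.5 and 16.1 FPKM untreated in wild-type cells. Both genotypes were higher with olaparib, knockout cells by more (interaction 1.27, adjusted p = 6.23e-06). In CXCL1, CXCL8 and IL6 the olaparib-treated knockout cells lay nearer to wild-type levels than the untreated knockout cells did.

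TIMP3, which inhibits metalloproteinases, had 11.9, 11.8 and 11.7 FPKM with olaparib and 3.63, 3.24 and 3.73 FPKM untreated in knockout cells, against 44.6, 44.6 and 44.0 FPKM with olaparib and 73.3, 72.3 and 72.3 FPKM untreated in wild-type cells. It moved up in knockout and down in wild-type cells (interaction 2.19, SE 0.06, limma adjusted p = 1.65e-11). DDIT4 had overlapping levels with olaparib in both genotypes, 9.10, 9.04 and 7.91 FPKM in knockout and 9.54, 9.38 and 8.66 FPKM in wild-type cells. Untreated it had 102, 100.0 and 100.0 FPKM in knockout and 53.7, 53.3 and 54.2 FPKM in wild-type cells, and the interaction was -0.97 (adjusted p = 8.58e-06). TXNIP was also close under olaparib and highest in untreated knockout cells, with 20.7, 22.1 and 21.6 FPKM in knockout and 25.2, 23.7 and 23.7 FPKM in wild-type cells under olaparib, and 91.0, 85.9 and 91.0 FPKM in knockout and 41.6, 42.1 and 40.6 FPKM in wild-type cells untreated (interaction -1.25, adjusted p = 3.56e-08). CXorf38 behaved otherwise: 2.09, 2.41 and 2.21 FPKM with olaparib and 11.7, 11.4 and 11.5 FPKM untreated in knockout cells, against 9.69, 9.25 and 9.41 FPKM with olaparib and 12.5, 12.97 and 13.8 FPKM untreated in wild-type cells. The untreated levels were close and the fall was far larger in knockout cells (interaction -1.52, adjusted p = 6.96e-08). PADI2, a peptidylarginine deiminase, had 3.12, 3.57 and 3.00 FPKM with olaparib and 14.2, 15.5 and 16.1 FPKM untreated in knockout cells, against 1.81, 1.84 and 1.81 FPKM with olaparib and 3.33, 2.98 and 2.05 FPKM untreated in wild-type cells. Of the 4 groups, untreated knockout cells stood highest (interaction -1.54, adjusted p = 0.00024).

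**Figure D5:**
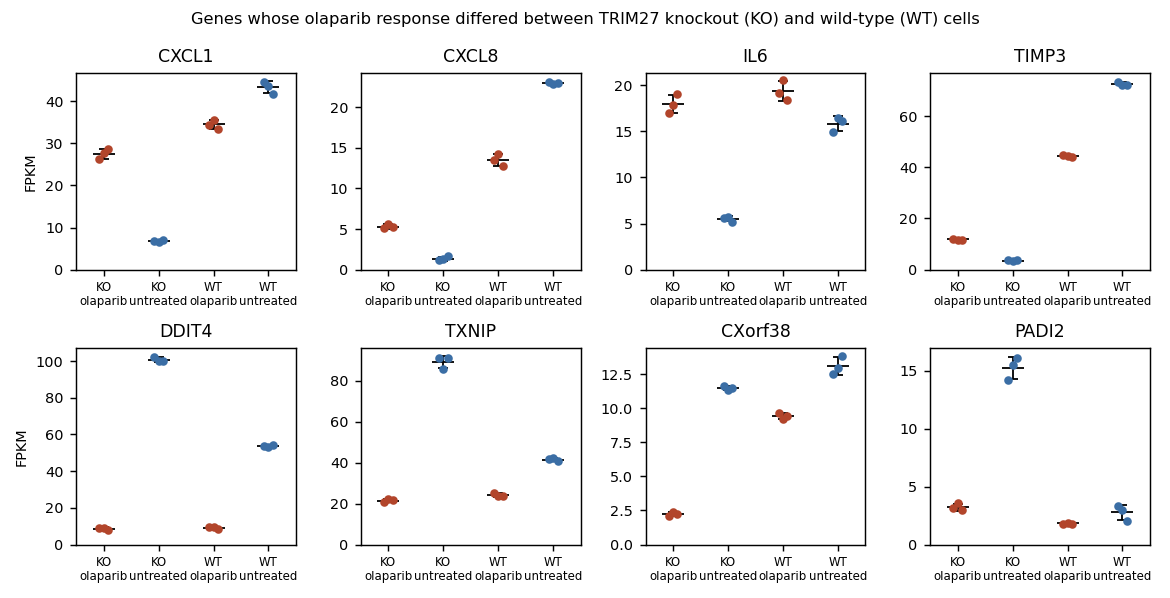
FPKM of each library for 8 genes whose olaparib response differed between genotypes, in olaparib-treated knockout, untreated knockout, olaparib-treated wild-type and untreated wild-type cells, with the mean and SD of each group (n = 3). For DDIT4 and TXNIP the olaparib groups sit close together and the untreated knockout cells stand highest; for CXCL1, CXCL8 and TIMP3 the genotypes move in opposite directions.

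Over the 463 genes with a called interaction, the absolute difference between knockout and wild-type means was smaller under olaparib than untreated for 345 and larger for 118. Its median was 0.17 on the log2 scale under olaparib and 0.39 untreated. In 55 of the 463 both genotypes were called, in opposite directions. These differences enter the interaction itself, so the counts are a description.

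Olaparib and siPARP1 in knockout cells share the untreated libraries and differ in time (24 h and 48 h), so their values are set side by side without a test. With no label giving the untreated cells a non-targeting siRNA, the siPARP1 values cannot be told apart from an effect of transfection. With siPARP1, 8146 of the 14578 genes were called (55.9%). FOS changed by 4.65 with olaparib and 2.13 with siPARP1, H2BC11 by 3.35 and 0.26, MDM2 by 1.78 and -0.36, F3 by 1.82 and 0.04, and ACTA2 by 2.35 and 0.01. SCD changed by -2.37 with olaparib and -2.65 with siPARP1, CDK1 by -1.39 and -1.21, DDIT4 by -3.40 and -2.29, CXCL8 by 1.43 and 2.77, and ANKRD1 by 1.55 and 3.28. PARP1 itself averaged 40.1 ± 1.23 FPKM with olaparib, 9.25 ± 0.472 FPKM with siPARP1 and 55.2 ± 3.70 FPKM untreated (SD, n = 3 each).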

How the data were processed

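RNA-seq values of 18 MDA-MB-231 libraries were analysed. The authors deposited FPKM per gene, and a second table of FPKM per transcript that served only as an alternative. Build GRCh38, the trimmer fastp 0.23.2, the aligner HISAT2 2.2.1, StringTie 2.2.1, featureCounts 2.0.3 and DESeq2 1.38.3 are listed in the submitters' processing notes; which tool made the FPKM, and the strand setting, are not given in the sources used here, so antisense genes are uncertain. FPKM are not counts, so log2(FPKM + 1) was fitted with limma 3.58.1 (R 4.3.3; trend in the prior variance) over 6 groups of 3 libraries (12 residual degrees of freedom, prior 2.06). The fit took the 15764 genes that reached 1 FPKM in 3 or more libraries; p-values were Benjamini-Hochberg adjusted over them, with a threshold of 0.05. The scripts were tested on simulated data. Gene lists are described by counts and medians, without a set test. Positions and gene types come from GENCODE 29 (GRCh38), symbols from a separate list of gene names, and promoters from RefSeq.

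Named genes are TRIM27, PARP1 and PAX6, the 12 largest rises and 12 largest falls (symbol, higher group averaging 5 FPKM or more, adjusted p under 0.05, no overlap), the 6 most extreme interactions in each direction, and from each role group of a list at most the 4 largest changes and the members on the other side. Further list members were chosen after their values were seen. Some genes that the rule names are not reported here. The comparison, the members and the lists were chosen with earlier results of these data known. Alternatives were another pseudocount (0.1), no filter, the 6 libraries alone, 2 other scalings, transcript sums, a replicate block and leaving out each library. No pair of libraries was identical.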

Additional observations from a re-analysis of the deposited data

Results flagged for a closer look

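11 genes are given here because their olaparib response differed between knockout and wild-type cells in a direct test of the difference (the limma interaction, with Benjamini-Hochberg adjusted p), and they were among the most extreme by the rule for named genes. Interactions were 2.19 for TIMP3 (adjusted p = 1.65e-11), 2.19 for CXCL1 (1.65e-11), 2.15 for CXCL8 (1.63e-08) and 1.27 for IL6 (6.23e-06), with libraries given above. CXCL2, a further neutrophil chemokine gene, had 12.6, 13.03 and 13.3 FPKM with olaparib and 3.33, 2.61 and 3.24 FPKM untreated in knockout cells, against 17.3, 18.6 and 16.6 FPKM with olaparib and 14.4, 15.4 and 13.7 FPKM untreated in wild-type cells (interaction 1.54, adjusted p = 2.49e-06). On the other side were CXorf38 (-1.52, 6.96e-08), PADI2 (-1.54, 0.00024), CHAC1 (-1.41, 0.0057) and ENO2 (-1.33, 0.0127). CHAC1 had 0.828, 0.789 and 0.514 FPKM with olaparib and 2.73, 6.01 and 5.33 FPKM untreated in wild-type cells, so its untreated level was higher in knockout cells. ENO2, neuronal enolase, had 7.75, 6.84 and 7.20 FPKM with olaparib and 25.9, 26.3 and 25 FPKM untreated in knockout cells, against 9.23, 11.98 and 10.1 FPKM with olaparib and 9.13, 17.3 and 16.1 FPKM untreated in wild-type cells, where untreated library 1 overlapped the olaparib ones.

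Single libraries stood apart in several of these genes, as in CHAC1 and ENO2 above and in COX7A2L and FOSL2. COX7A2L, which helps respiratory supercomplexes form, had 62.4, 60.2 and 60.5 FPKM with olaparib and 16.99, 17.4 and 17.6 FPKM untreated in knockout cells, against 18.3, 18.04 and 26.2 FPKM with olaparib and 59.9, 60.9 and 17.5 FPKM untreated in wild-type cells (interaction 2.69, adjusted p = 0.0199). Untreated wild-type library 3 sat at the low level of the untreated knockout cells. FOSL2 had an interaction of -1.97 (adjusted p = 0.0462), with olaparib knockout library 2 at 38.1 FPKM and the other two at 9.46 and 8.91 FPKM. In wild-type cells FOSL2 had 37.6, 37.6 and 36.7 FPKM with olaparib and 36.0, 32.5 and 36.1 FPKM untreated. The cause of these steps between libraries was not tested.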

How the results depend on the processing

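The count of genes called in knockout cells (7134) was 7071 with a pseudocount of 0.1, 7972 without a filter, 6637 with the 6 libraries alone, 7095 with median-of-ratios scaling, 6738 with annotated genes rescaled and 6197 with transcript sums. Leaving out 1 library at a time gave 6412 to 6538 genes, 3365 to 3526 of them higher and 2983 to 3089 lower. The interaction count (463) ran from 298 to 382 without 1 library, with 147 to 191 genes more positive and 149 to 197 more negative in knockout cells. The interaction could not be fitted with the 6 knockout libraries alone. None of the genes named for the size of their change or interaction reversed under these alternatives, nor did PARP1 or PAX6. Of 574 called members of the lists 461 kept the call under all 13 alternatives and 113 lost it under at least 1, of which 5 changed sign with transcript sums without passing there, among them LIG1 (0.49), PALB2 (0.22), ATR (-0.02) and ATF6 (-0.12). Of 91 list members with a called interaction 56 kept it under all 18 alternatives, and HSPA5 (-2.81) and PDIA4 (-0.06) changed sign with transcript sums. Among the genes described, HSPA5 and PARP1 lost the olaparib call with transcript sums. MT-ND4 (0.22, limma adjusted p = 0.087), ENG (-0.32, 0.0817), HSP90AA1 (-0.36, 0.0562) and WASHC5 (0.18, 0.069) lost it without a filter. CCND3 (1.12, limma adjusted p = 0.0723) and CDK2 (-0.91, 0.0977) lost it there too, and CDK2 with the replicate block (0.0582). SCAP lost it with annotated genes rescaled (0.20, 0.0843), and WASHC5 with both other scalings and the 6 libraries alone. MT-CO1, MT-CO3 and MT-ATP8 also lost it without a filter (0.0812 to 0.153), and MT-ATP8 with annotated genes rescaled (0.0519). Without 1 library at a time, small counts also moved in the mesenchymal list (1 lower, against 2), the cholesterol list (0 to 2 higher, against 1), the ribosome biogenesis list (1 lower, against 2), the replication list (2 higher, against 1) and the heat shock list (0 lower, against 1). With transcript sums the reticulum list had 2 higher and 5 lower. The PARP1 fall did not pass with transcript sums (-0.22, adjusted p = 0.738). The COX7A2L interaction missed the threshold without wild-type olaparib library 1 or 2 or untreated wild-type library 1 or 2 (2.40 to 2.62, adjusted p 0.0513 to 0.0537). The FOSL2 interaction missed it with a pseudocount of 0.1 (-2.05, adjusted p = 0.0514), without a filter (-1.97, 0.101), with the replicate block (0.0573) and without any 1 library other than olaparib knockout library 2 (0.0837 to 0.103). Same-numbered olaparib and untreated libraries deviated from their group means with correlations of 0.041, 0.02 and -0.008, so the numbers were not taken as pairs; with the replicate number as a block 7061 genes were called. Not every library correlated best with its own number. Low genes are limited by the unknown depth and the pseudocount.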

Other observations

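Beyond the lists, some classes of noncoding genes were higher more often than lower under olaparib in knockout cells. Of 333 long intergenic noncoding RNAs among the members 135 were higher and 53 lower (median log2 change 0.18), of 410 antisense genes 153 were higher and 49 lower (0.22), and of 76 small nucleolar RNA genes 33 were higher and 1 lower (0.50), against 2899 higher and 2808 lower of 11235 protein-coding genes (0.02). With annotated genes rescaled the medians were 0.14, 0.20, 0.60 and -0.06. The libraries were made from polyadenylated RNA, so values at small nucleolar RNA genes may not measure the mature small RNAs. Whether reads at these short genes came from longer transcripts that contain them was not tested. Of 722 processed pseudogenes, by contrast, 100 were higher and 146 lower (median -0.05), and of 25 miscellaneous RNA genes 6 were higher and none lower (-0.03). LINC00910 had 24.2, 26.2 and 25.2 FPKM with olaparib and 5.97, 5.86 and 6.69 FPKM untreated (1.87). NEAT1, the scaffold of paraspeckles, had 41.4, 82.5 and 79.4 FPKM with olaparib and 19.4, 14.6 and 20.4 FPKM untreated (1.79), and each olaparib library was higher. MIR34AHG, host of the p53-responsive miR-34a, had 10.2, 9.71 and 9.53 FPKM with olaparib and 3.20, 0.138 and 0.314 FPKM untreated (2.55).

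Among genes next in size after the 12 named on each side, HES1, a Notch-responsive repressor, had 9.86, 9.77 and 9.62 FPKM with olaparib and 1.32, 1.53 and 1.65 FPKM untreated (log2 change 2.11). KIT, the stem cell factor receptor, had 7.13, 7.01 and 6.55 FPKM with olaparib and 1.15, 0.788 and 0.980 FPKM untreated (2.01). Neither overlapped between groups. MKI67, the proliferation marker Ki-67, had 9.99, 9.28 and 10.5 FPKM with olaparib and 30.2, 44.8 and 31.4 FPKM untreated (-1.72), and the chromatin protein gene WDR76 had 2.92, 2.95 and 2.90 FPKM with olaparib and 12.96, 12.95 and 12.2 FPKM untreated (-1.80).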
